A study of Mus musculus with 7 samples.

Results

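The genes encoding the Notch receptors (Notch1, Notch2, Notch3 and Notch4) and their ligands (Jag1, Jag2, Dll1 and Dll4) were examined in whole liver of mice with and without Rbpj in liver cells. All non-control probes that carry one of these 8 gene names in the array design were taken, which gave 10 probes of the 55681 on the array. Notch1 and Notch2 had a pair of probes each and the other 6 genes 1 probe each. Rbpj +/+ liver came from 4 AlfpCre- Rbpj flox/flox mice, named Rbpj +/+_1155 and Rbpj +/+_1156, followed by Rbpj +/+_1024 and Rbpj +/+_991. Rbpj -/- liver came from 3 AlfpCre+ Rbpj flox/flox mice, named Rbpj -/-_N3, then Rbpj -/-_N5 and then Rbpj -/-_2866. Values of single arrays are given in this order throughout. All mice were untreated, had the C57BL/6J background and were 4 weeks old, and all of them carried the floxed allele, so the genotypes differed in the Cre transgene. The labels describe the Rbpj -/- livers as cholestatic and the Rbpj +/+ livers as free of cholestasis. Genotype and cholestasis therefore cannot be told apart here. AlfpCre is active in the hepatoblast lineage, from which hepatocytes and cholangiocytes arise, while endothelial cells, mesenchymal cells and macrophages of the same livers keep Rbpj.

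Notch receptors are membrane proteins that are activated by Jagged and Delta-like ligands on neighbouring cells. Ligand endocytosis pulls the receptor open, ADAM proteases and gamma-secretase cut it, and the released intracellular domain binds RBPJ in the nucleus and switches on target genes such as those of the Hes and Hey families. In the liver, Jag1 in the portal mesenchyme and Notch2 in hepatoblasts are known for their role in bile duct formation, Notch1, Notch4 and Dll4 for their role in vessels, and Notch3 for its role in smooth muscle cells and pericytes.

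In whole liver, fewer cells of a type and less RNA per cell cannot be told apart. As a check of the labels, Rbpj itself was read first. With the brighter of its probes (mm9, chr5:54048503-54048562), Rbpj had normalised log2 intensities of 0.97, 0.29, 0.33 and 0.81 on the Rbpj +/+ arrays, against -0.35, -0.78 and -0.48 on the Rbpj -/- arrays. Rbpj was lower on every Rbpj -/- array, by 1.13 on the log2 scale (SE 0.24, adjusted p = 0.0115, limma). Whether this probe lies in the deleted stretch of the gene was not determined. The other probe matched to Rbpj lies on another chromosome (mm9, chr6:46479373-46479432). It differed by -1.63 (SE 0.58, adjusted p = 0.0723, limma). Its values overlapped, from -2.74 to -0.73 on Rbpj +/+ and from -4.51 to -2.22 on Rbpj -/- arrays. Normalised log2 intensity means here the log2 of the background-subtracted intensity minus the 75th percentile of the array. The number of arrays limits the precision. Between 22882 and 36138 probes were detected per array, and Rbpj +/+_1156 and Rbpj -/-_N3 detected more probes than the others. All Rbpj +/+ arrays lay in the first row of the slide and all Rbpj -/- arrays in the other row, so slide row and genotype cannot be told apart. The 75th percentile was higher by 0.73 on the log2 scale on the Rbpj -/- arrays, and this offset was removed.

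Of the 10 probes, 7 probes of 7 genes cleared the background on every array of 1 or both genotypes and were tested. Of these, Dll4 cleared it on every Rbpj -/- array but not on every Rbpj +/+ array, and the other 6 on all arrays. Notch3 and Dll1 rose in Rbpj -/- liver, to 1.69-fold and 1.67-fold, and the tested Notch1 probe fell to 0.417-fold. Notch2, Notch4, Jag1 and Dll4 did not pass the threshold of 0.1 on the adjusted p, and Jag2 was not tested. These 3 calls among 7 probes stand beside 33.6% of all 24547 tested probes. By direction, 2 of the 7 probes were higher, beside 14.3% of all tested probes, and 1 was lower, beside 19.2%. This background depended on the scaling, with 3522 higher and 4719 lower probes here, 3873 and 3678 under quantile normalisation, and 4315 and 4078 with the percentile over the probes detected on all arrays, while the median over all tested probes moved from -0.12 to -0.041 and -0.04. The difference was above 0 for 6 of the 7 probes and for 42.5% of all tested probes, and its median was 0.64 on the log2 scale against -0.12 over all tested probes. This count and median include Dll4, which was tested only through the Rbpj -/- arrays, where it was higher. The direction of Dll4 was therefore favoured by the filter. Rbpj +/+ and Rbpj -/- values were separate for Notch2, Notch3 and Dll1, that is for 3 of 7 probes, beside 35.6% of all tested probes without overlap. The plot of all 10 probes by animal shows these values.

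**Figure D1:**
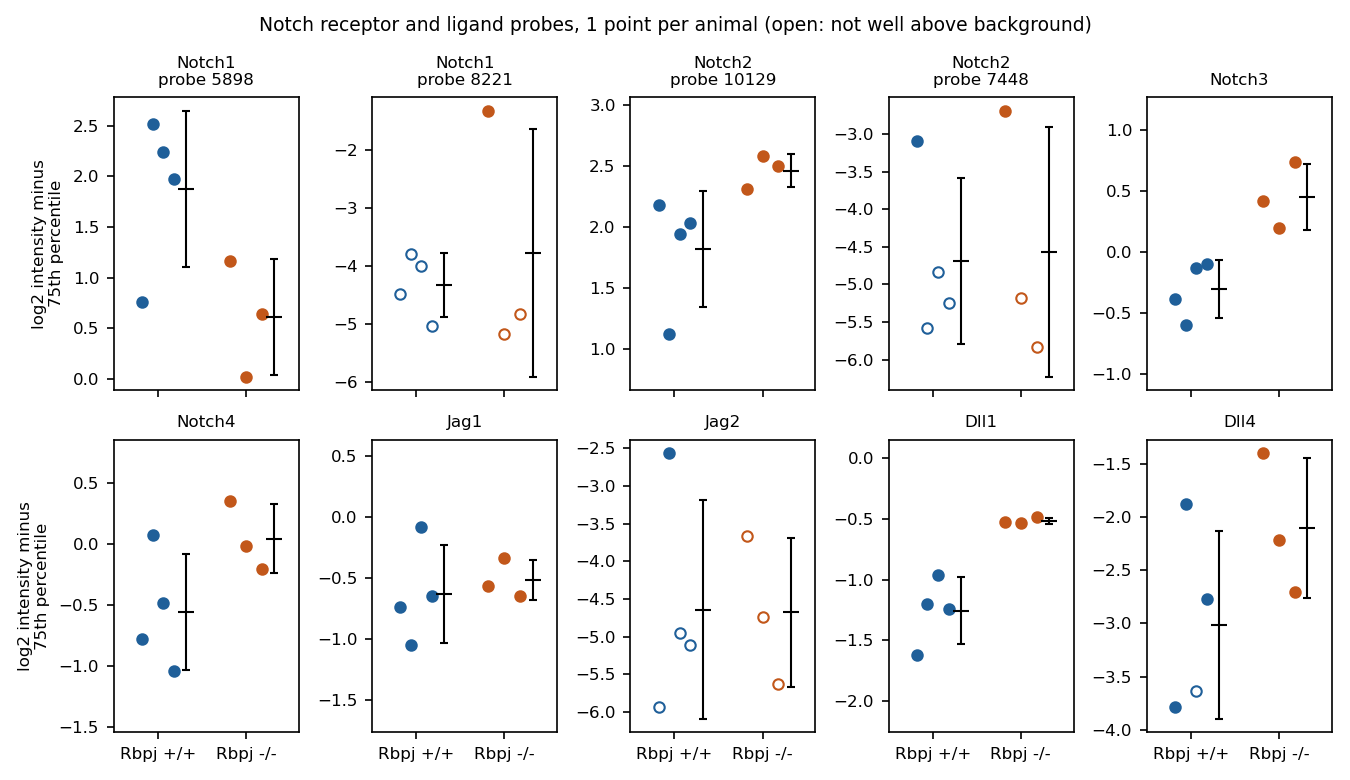
Normalised log2 intensity (log2 intensity minus the 75th percentile of the array) of the 10 probes of the Notch receptor and ligand genes, with 1 point per animal (4 Rbpj +/+, 3 Rbpj -/-), open points where the probe was not well above background, and bars for mean and SD; each panel has its own axis. Notch3 and Dll1 lie higher on every Rbpj -/- array, the tested Notch1 probe lies mostly lower, and Jag2 and the second probes of Notch1 and Notch2 are mostly open points.

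Notch1 was read by probes in different parts of its transcript, which are shown because the first was detected on every array and the other was not. The probe from transcript base 5898 (mm9, chr2:26319440-26319499, minus strand) and the probe from base 8221 (chr2:26314630-26314689, minus strand) are named by their positions in the transcript as the array design gives them, which were not compared with an annotation of coding and untranslated parts. The first 30 bases of the latter are given. Their sequences have a GC content of 55.0% and 40.0%.
Notch1, base 5898: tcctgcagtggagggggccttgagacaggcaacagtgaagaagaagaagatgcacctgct
Notch1, base 8221: ttgcttctttccaaaatcgaaaagaaagaa

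With the probe from base 5898, Notch1 had normalised log2 intensities of 0.76, 2.52, 2.24 and 1.97 on the Rbpj +/+ arrays, against 1.17, 0.022 and 0.65 on the Rbpj -/- arrays. Arrays Rbpj +/+_1156, Rbpj +/+_1024 and Rbpj +/+_991 were above all Rbpj -/- arrays, and array Rbpj +/+_1155 lay within the Rbpj -/- range. Notch1 fell by 1.26 on the log2 scale, from 1.87 ± 0.77 (SD, n = 4) to 0.61 ± 0.57 (SD, n = 3), with a standard error of 0.43, a 95% interval from -2.24 to -0.28 and an adjusted p of 0.0651 (limma). This call was lost when Rbpj +/+_1156, Rbpj +/+_1024, Rbpj +/+_991, Rbpj -/-_N5 or Rbpj -/-_2866 was left out, with an adjusted p between 0.118 and 0.211, and under quantile normalisation (adjusted p = 0.12). The probe from base 8221 was above background on array Rbpj -/-_N3 only, with an intensity of 56.8, while the other 6 arrays gave intensities between 2.29 and 6.16. No fold is given for it.

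Notch2, the receptor of the hepatoblast lineage, was read by a probe from transcript base 10129 (mm9, chr3:97953914-97953973, plus strand) and by a probe from base 7448 (chr3:97951233-97951292, plus strand). Both are shown because here the probe nearer the 3′ end was detected on every array and the other was not, the former by its first 30 bases. The GC content of the 60-base probes is 41.7% and 55.0%.
Notch2, base 10129: ccacttgaagtcttgcatagaaatgaacca
Notch2, base 7448: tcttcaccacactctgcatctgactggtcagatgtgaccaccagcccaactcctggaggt

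With the probe from base 10129, Notch2 had normalised log2 intensities of 2.18, 1.13, 1.94 and 2.04 on the Rbpj +/+ arrays, against 2.31, 2.58 and 2.50 on the Rbpj -/- arrays. All Rbpj -/- livers lay above all control livers, and array Rbpj +/+_1156 was the lowest. The difference was 0.64 (SE 0.27, 95% interval 0.030 to 1.25), and it missed the threshold (adjusted p = 0.116, limma). It passed under quantile normalisation (adjusted p = 0.0566) and when the 75th percentile was taken over the probes detected on all arrays (adjusted p = 0.0325). The probe from base 7448 was above background on arrays Rbpj +/+_1155 and Rbpj -/-_N3 (intensity 22.1), and its intensities were between 1.78 and 3.57 on the other 5 arrays. It was not tested.

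Notch3, the receptor of vascular smooth muscle cells and pericytes, rose in Rbpj -/- liver. Its probe starts at transcript base 7873 (mm9, chr17:32257848-32257907, minus strand), and its first 30 bases are shown because Notch3 was the receptor that passed the test upwards.
Notch3, base 7873: gcctaatagaaatgtttttaggctgttttt

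Notch3 had normalised log2 intensities of -0.39, -0.60, -0.13 and -0.10 on the Rbpj +/+ arrays, against 0.41, 0.19 and 0.74 on the Rbpj -/- arrays. The groups did not overlap. The mean rose from -0.31 ± 0.24 (SD, n = 4) to 0.45 ± 0.27 (SD, n = 3), a log2 difference of 0.75 (SE 0.22, 95% interval 0.26 to 1.25, adjusted p = 0.0369, limma). Array Rbpj -/-_2866 had the highest value, and without it the difference was 0.61 and no longer passed (adjusted p = 0.111). Without both Rbpj +/+_1156 and Rbpj -/-_N3, the arrays with more detected probes, it was 0.67 (adjusted p = 0.0935).

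Notch4, which is known from endothelial cells (probe at mm9, chr17:34725120-34725179, plus strand), had normalised log2 intensities of -0.77, 0.074, -0.48 and -1.04 on the Rbpj +/+ arrays, against 0.36, -0.015 and -0.20 on the Rbpj -/- arrays. Array Rbpj +/+_1156 alone of the control arrays lay within the Rbpj -/- range. The difference was 0.60 (SE 0.29, 95% interval -0.045 to 1.25) and did not pass (adjusted p = 0.156, limma). Without array Rbpj +/+_1156 it was 0.81 and passed (adjusted p = 0.0401).

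Among the ligands, Jag1, the ligand of the portal mesenchyme (mm9, chr2:136907433-136907492, minus strand), differed least. It had normalised log2 intensities of -0.74, -1.05, -0.081 and -0.65 on the Rbpj +/+ arrays, against -0.57, -0.33 and -0.64 on the Rbpj -/- arrays. The Rbpj -/- values lay inside the range of the control values. The difference was 0.11 (SE 0.25, adjusted p = 0.764, limma) and was -0.026 without array Rbpj +/+_1156. Its 95% interval ran from -0.45 to 0.68.

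Jag2, the other Jagged ligand (mm9, chr12:114146887-114146946, minus strand), was well above background on array Rbpj +/+_1156 only, with an intensity of 14.5. On the other 6 arrays its intensity was between 1.67 and 11.2, with the highest of these on array Rbpj -/-_N3. Jag2 was therefore below the background criterion in both genotypes, was not tested, and is given no fold.

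Dll1, a Delta-like ligand (probe at mm9, chr17:15504623-15504682, minus strand), rose in Rbpj -/- liver. Its probe was printed 10 times on each array, which no other probe of these genes was, so the spread between spots of an array could be read. The first 30 bases of the probe are shown because Dll1 was the ligand that passed the test.
Dll1, base 3063: gattactatgagccagtctttccttgaact

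Dll1 had normalised log2 intensities of -1.62, -1.20, -0.96 and -1.24 on the Rbpj +/+ arrays, against -0.53, -0.54 and -0.49 on the Rbpj -/- arrays. Every Rbpj -/- value was above every control value. The mean rose from -1.26 ± 0.27 (SD, n = 4) to -0.52 ± 0.028 (SD, n = 3), a log2 difference of 0.74 (SE 0.20, 95% interval 0.28 to 1.20, adjusted p = 0.0322, limma). The call held when each animal was left out in turn and without both Rbpj +/+_1156 and Rbpj -/-_N3 (adjusted p = 0.0767). With normexp background correction, another way to handle background that adds an offset and shrinks differences between dim probes, the difference was 0.24 and did not pass (adjusted p = 0.185).

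The spots of Dll1 gave the spread within an array, and not the error between arrays. Of 70 spot values, 3 were marked by the scanner software and left out. Within an array, the SD of the spots was between 0.057 and 0.22 on the log2 scale, and 0.16 when pooled over arrays. Each array value is the mean of its spots, with a standard error from the spots between 0.019 (Rbpj -/-_N5) and 0.069 (Rbpj +/+_1155). The SD between animals was 0.27 for Rbpj +/+ and 0.028 for Rbpj -/-. Spot intensities ran from 24.6 to 44.9 over the Rbpj +/+ arrays and from 79.8 to 124 over the Rbpj -/- arrays, before the shift of the arrays was removed.

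**Figure D2:**
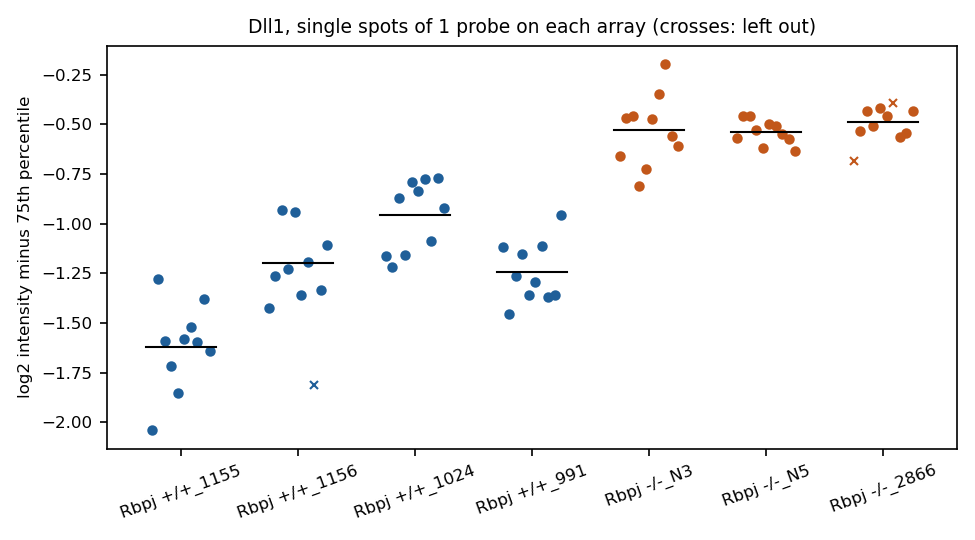
Normalised log2 intensity of the 10 spots of the Dll1 probe on each of the 7 arrays, with a line for the mean of the spots used and crosses for the 3 spots left out. The means lie between -1.62 and -0.96 on the Rbpj +/+ arrays and between -0.54 and -0.49 on the Rbpj -/- arrays.

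Dll4, the ligand of arterial and sprouting endothelium (mm9, chr2:119160779-119160838, plus strand), was well above background on 3 of 4 Rbpj +/+ and on 3 of 3 Rbpj -/- arrays. Its normalised log2 intensities were -3.79, -1.88, -3.63 and -2.77 on the Rbpj +/+ arrays, against -1.40, -2.22 and -2.70 on the Rbpj -/- arrays. Array Rbpj +/+_1156 lay within the Rbpj -/- range, and the other control arrays lay below it. The difference was 0.91 (SE 0.49, 95% interval -0.19 to 2.01, adjusted p = 0.203, limma), which did not pass, and with normexp background correction it was -0.12. It passed under quantile normalisation (1.02, adjusted p = 0.0256) and without array Rbpj +/+_1156 (1.29, adjusted p = 0.0519).

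**Figure D3:**
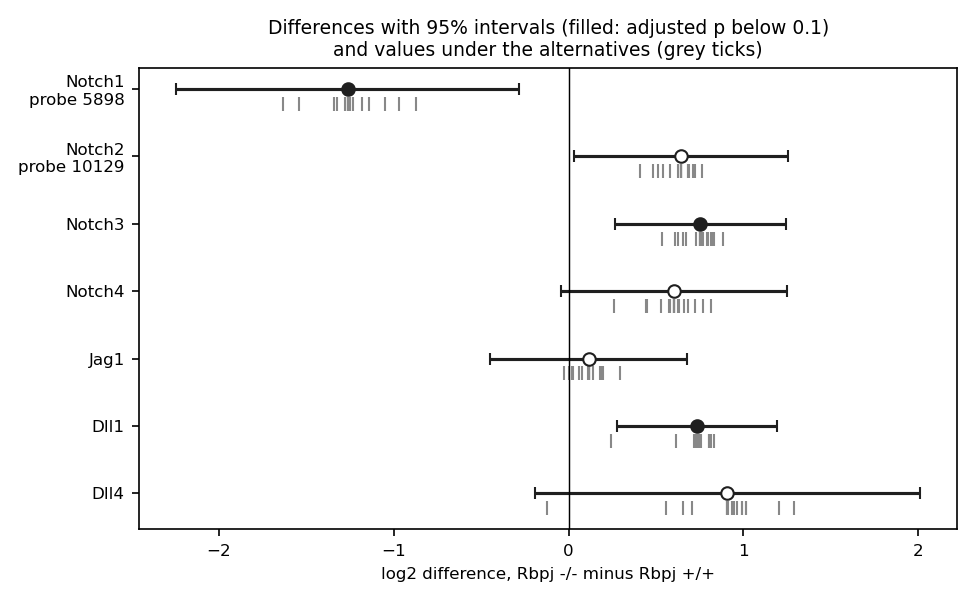
Log2 difference between Rbpj -/- and Rbpj +/+ liver for the 7 tested probes, with 95% intervals (filled points: adjusted p below 0.1) and grey ticks for the values under the alternative settings. Notch1 lies below 0 and Notch2, Notch3, Notch4 and Dll1 above 0 under all settings tried, while the ticks of Jag1 and Dll4 reach across 0.

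The promoters of the 8 genes were read for the motif bound by RBPJ, since some Notch genes are themselves known as Notch targets. The windows were the 250 bases before each annotated start in RefSeq (GRCm38.p6), 9 windows for the 8 genes because Dll1 has a pair of starts. TGGGAA on either strand was in 0 of the 9 windows, beside 21.6% of 32851 windows of all genes, and its longer form GTGGGAA, which contains it, was in 0 beside 5.42%. The absence of these letters says nothing about sites elsewhere. The GC content of the windows was from 56.0% to 87.2%, beside a median of 52.4% over all windows. Of all windows, 61.3% lay below the lowest of these values. The GC box GGGCGG, on either strand, was in 5 of the 9 windows, beside 32.7% of all windows, which were not matched for GC content. The windows of the pair of genes that rose are shown with the GC boxes in capitals. Notch3 (chr17:32166891-32167140, minus strand) held 4 and the upstream window of Dll1 (chr17:15376933-15377182, minus strand) held 0.
Notch3 promoter: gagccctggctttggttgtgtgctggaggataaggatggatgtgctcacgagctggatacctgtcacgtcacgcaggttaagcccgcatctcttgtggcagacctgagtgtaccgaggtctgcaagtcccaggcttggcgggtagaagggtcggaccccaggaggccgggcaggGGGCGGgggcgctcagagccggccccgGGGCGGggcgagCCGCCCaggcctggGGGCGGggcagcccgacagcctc
Dll1 promoter: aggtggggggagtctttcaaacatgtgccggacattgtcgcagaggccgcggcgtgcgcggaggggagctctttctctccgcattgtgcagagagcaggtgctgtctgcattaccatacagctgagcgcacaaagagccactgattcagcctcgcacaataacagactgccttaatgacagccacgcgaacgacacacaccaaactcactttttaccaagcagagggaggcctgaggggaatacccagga

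Genes that make, process or answer the Notch signal were taken as 7 lists by role. Of 60 genes listed, 51 were tested with 1 probe each, 8 were higher and 9 were lower, which is 33.3% beside 34.2% of all 18754 tested genes. By direction, 14.6% of all tested genes were higher and 19.5% lower, and the counts of each list stand beside these shares. The median difference of the 51 genes was -0.089 on the log2 scale, and that of all tested genes was -0.13. Of the other ligand genes, the microfibril protein gene Mfap2 rose by 1.53 (SE 0.28, adjusted p = 0.00665, limma), whereas Dlk2, an inhibitor of Notch signalling, fell by 0.80 (SE 0.22, adjusted p = 0.033, limma). The second probe of Mfap2 gave 0.11, and Dlk2 lost its call without Rbpj -/-_N3 (adjusted p = 0.106, limma). Dll3, Dlk1, Dner and Mfap5 were not tested.

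The enzymes that put sugars on the receptor rose in 2 of 9 tested genes and fell in 0. These were Eogt, which adds GlcNAc to EGF repeats, with 0.74 (SE 0.23, adjusted p = 0.0506, limma), and Mfng, a Fringe that extends O-fucose, with 0.73 (SE 0.25, adjusted p = 0.0701, limma). Under quantile normalisation neither passed (adjusted p = 0.156 and 0.106), nor did either without array Rbpj -/-_N3 (0.141 and 0.188), Rbpj +/+_1024 (0.113 and 0.138) or Rbpj -/-_N5 (0.14 and 0.166). Mfng also lost its call without Rbpj +/+_1155 (0.126) or Rbpj +/+_991 (0.114), and Eogt with normexp background correction (0.12). Of 7 genes of ligand endocytosis, 3 rose and 1 fell, and of the 6 detected on all 7 arrays, 2 rose and 1 fell. The Neuralized-type ubiquitin ligase genes Neurl3 and Neurl1a rose by 2.53 (SE 0.39, adjusted p = 0.00368, limma) and 1.40 (SE 0.26, adjusted p = 0.00745, limma). Neurl3 was detected on 2 of 4 Rbpj +/+ arrays, and it was tested through the Rbpj -/- arrays. With normexp background correction its difference was 0.28 and did not pass (adjusted p = 0.118), and that of Neurl1a was 0.66. Epn2 rose and Epn1 fell, while the ligase genes Mib1 and Mib2 did not pass.

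Receptor cleavage had 0 higher and 3 lower genes of 9 tested. Adam17, a protease that sheds membrane proteins, fell by 0.95 (SE 0.27, adjusted p = 0.0347, limma), and Aph1a, a subunit of gamma-secretase, also fell by 0.95 (SE 0.18, adjusted p = 0.00868, limma). The second probe of Aph1a differed by 0.33 in the other direction. Adam17 lost its call without Rbpj -/-_N5 (adjusted p = 0.12, limma). Psenen, another gamma-secretase subunit gene, fell by 0.52 (adjusted p = 0.0903, limma). Of 9 genes of receptor trafficking and turnover, 1 rose and 2 fell. Numb, which encodes an endocytic inhibitor of Notch, fell by 0.88 (SE 0.22, adjusted p = 0.0223, limma), while its paralogue Numbl rose by 1.25 (SE 0.23, adjusted p = 0.0078, limma). Fbxw7, which encodes a ubiquitin ligase subunit that turns over the Notch intracellular domain, fell by 0.66 (adjusted p = 0.0309, limma).

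Of 12 tested genes of the nuclear complex, Rbpj and the corepressor gene Kdm5a fell, Kdm5a by 0.61 (SE 0.19, adjusted p = 0.049, limma), and 0 rose. Kdm5a lost its call without Rbpj +/+_1024 (adjusted p = 0.124, limma), Rbpj +/+_991 (0.121), Rbpj -/-_N5 (0.119) or Rbpj -/-_2866 (0.137). Among the target genes, Hey1 rose in Rbpj -/- liver by 1.45 (SE 0.23, adjusted p = 0.00402, limma), from between -2.21 and -1.48 to between -0.35 and -0.080. Hes1 differed by -0.60 (SE 0.50, adjusted p = 0.406) and Heyl by -0.75 (SE 0.41, adjusted p = 0.209), and neither passed. Single arrays moved both, Hes1 to -0.078 without Rbpj +/+_1155, and Heyl to -0.42 without Rbpj -/-_N3 and to -1.26 without Rbpj -/-_2866, where it passed (adjusted p = 0.0259). Hes5, Hey2 and Nrarp were not tested. The plot by role sets these genes beside the receptors and ligands.

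**Figure D4:**
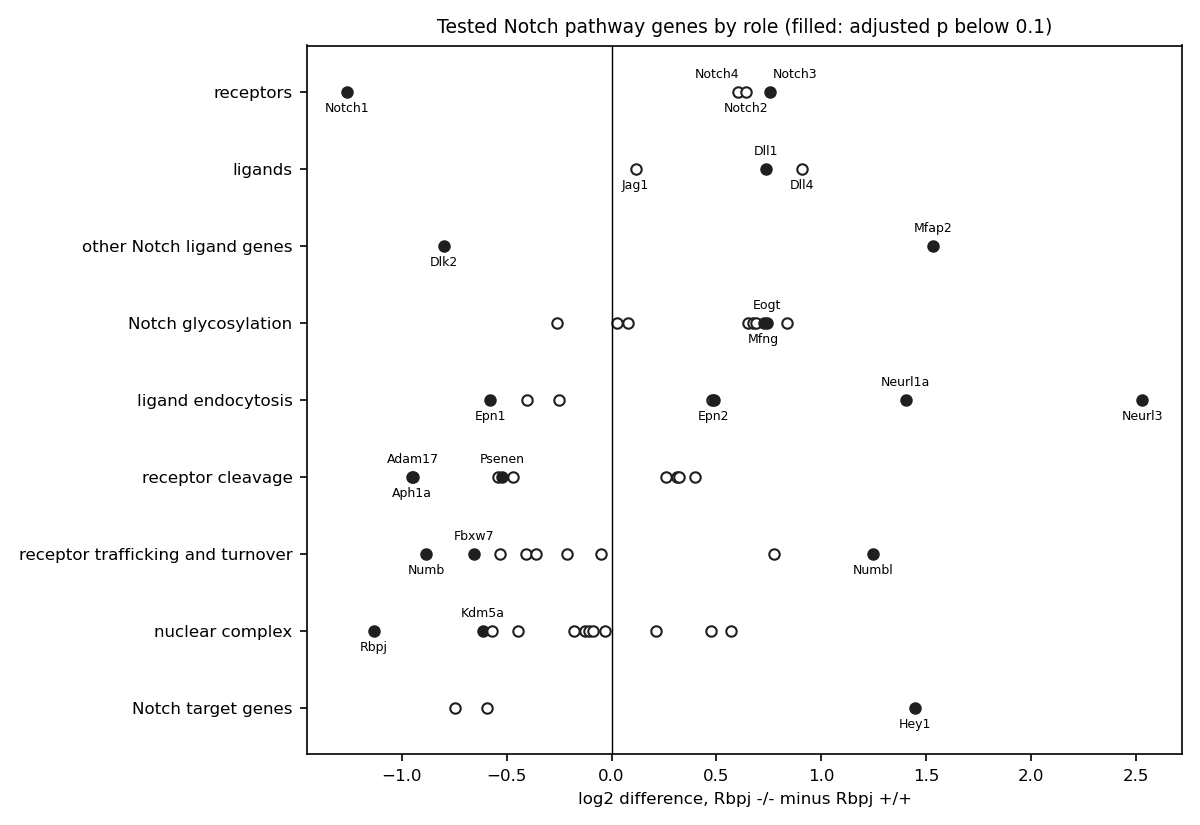
Log2 difference between Rbpj -/- and Rbpj +/+ liver for the tested receptor and ligand genes and the 51 tested genes of 7 pathway lists, with 1 point per gene, filled where the adjusted p was below 0.1. Every pathway list has points on both sides of 0, and the tested ligands lie above 0; Neurl3 has the highest value (2.53, but 0.28 with normexp background correction, below Hey1 at 0.55), and Notch1 (-1.26) and Rbpj (-1.13) the lowest.

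Markers of the cell types that can carry Notch receptors and ligands also differed between the genotypes. The counts are of markers detected on all 7 arrays. They stand beside 14.6% of all tested genes that were higher and 19.5% that were lower (34.2% in either direction). These shares include genes detected on all arrays of only 1 genotype. Beside Notch3, and Jag1 with its difference of 0.11 that did not pass, 3 of 3 smooth muscle and pericyte markers rose (Acta2 by 1.70, Tagln by 0.74, and Rgs5). So did 3 of 6 stellate cell markers (Cygb by 0.70, Lrat and Pdgfrb, with Colec11 at -0.032 not passing) and 5 of 5 fibroblast markers (Col1a2 by 1.37, Col3a1 by 0.95, and Col1a1, Thy1 and Pdgfra). Summed linear levels, in multiples of the 75th percentile, were taken over all tested markers of a list. Unlike the counts, they include Cnn1, Des, Tek and Emcn, which were not detected on all arrays. The sums were 8.90 to 14.5 on Rbpj +/+ and 22.3 to 29.0 on Rbpj -/- arrays for smooth muscle and pericytes. They were 28.8 to 39.3 and 39.7 to 44.0 for stellate cells, and 46.5 to 69.7 and 103 to 172 for fibroblasts. Cnn1 was detected on 0 of 4 Rbpj +/+ arrays, and Myh11, Cspg4 and Dpt were not tested. Beside Notch1, Notch4 and Dll4, 4 of 10 endothelial markers rose (Clec4g by 1.21, and Cdh5, Tie1 and Eng). Kdr fell by 1.19, with 0.013 for its second probe. Those that did not pass were Erg (-0.79), Stab1 (0.53), Stab2 (0.48), Pecam1 (0.42) and Lyve1 (0.13). The summed level was 60.7 to 87.3 and 96.7 to 144. Clec4g weighed most in it, with a mean log2 value of 5.98 on the Rbpj -/- arrays, beside 4.67 for Stab2. Beside Notch2, 4 of 8 cholangiocyte markers rose (Krt23 by 1.80, Spp1 by 1.66, and Sox9 and Prom1), with a summed level of at most 7.76 on Rbpj +/+ and at least 15.9 on Rbpj -/- arrays, and Epcam and Muc1 were not tested. The part of these shifts in the values of the receptors and ligands was not tested.

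Of the remaining lists, 4 of 10 hepatocyte markers (Alb by 0.78, Cyp2e1 by 1.20, and Ttr and Apoa1), the B cell marker Cd79b and 2 of 3 T cell markers (Cd4, Cd3e) fell, and 7 of 9 macrophage markers (Cd5l, and Csf1r with probes from -0.41 to 1.93), 2 of 3 neutrophil markers (S100a8, S100a9) and 3 of 3 proliferation genes (Mki67, Cdk1, Ccnb1) rose. Cd79a, Ms4a1, Top2a and Bub1 passed the test but were not detected on all arrays of the genotype where they were lower. The hepatocyte markers, the labelled tissue's own, were detected on all 7 arrays for each of the 10 genes. Those that did not pass went both ways. Cps1 differed by 0.94, Tat by 0.52 and Tdo2 by 0.20. Hnf4a differed by -0.32, Fah by -0.25 and Pck1 by -0.15. The T cell marker Cd3d (0.12) and the neutrophil marker Camp (-0.055, and 0.44 with its other probe) did not pass either.

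Genes with the most similar pattern over the 7 arrays were found by the root mean square difference between profiles centred on their mean, among 13634 genes. For Notch3 these were Cd44 (0.0786) and Slc15a4 (0.0922), beside a median of 0.555 over all genes. For Dll1 they were Hspg2, which encodes the basement membrane proteoglycan perlecan (0.0598), and Fam189b (0.0721), beside a median of 0.56. For Notch4 they were Sox17, an endothelial transcription factor gene (0.106), and Sh3tc2 (0.129), for Notch2 Mpi (0.0758) and Arl3 (0.0764), and for Jag1 Lonrf1 (0.0816) and Mlx (0.0989). For Notch1 (4932431P20Rik at 0.131, Pnma2 at 0.166) and Dll4 (Fmnl3 at 0.222, Psd4 at 0.229) the differences were larger. So were the medians over all genes, 0.941 for Notch1 and 0.958 for Dll4. The medians were 0.646 for Notch4, 0.547 for Notch2 and 0.431 for Jag1. The differences therefore do not rank the genes by how well they were matched. These are descriptions over 7 arrays that share the difference between genotypes.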

How the data were processed

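Per the labels, total RNA of whole liver from 7 mice was labelled with Cy3 and hybridised to Agilent 8x60K mouse arrays, 1 array per animal, on 1 slide. The deposited intensity values are background-subtracted spot signals that the authors obtained with Agilent Feature Extraction 10.7.3.1 and did not normalize across arrays, together with mean and local background intensities and 5 quality marks. The authors also deposited log2 values as a series matrix, which were used as an alternative. Coordinates are those of the array files (mm9).

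Non-control spots without an outlier mark (non-uniform, population) were averaged per probe as log2 values, from which each array's 75th percentile was taken. A probe was detected when more than 0.5 of its spots were positive, significant and well above background, and it was tested when detected on all arrays of at least 1 genotype. Genotypes were compared with limma 3.58.1 (R 4.3.3), with Benjamini-Hochberg adjustment over 24547 probes and a threshold of 0.1, in place of the shrinkage-T statistic of the methods. The p-values measure the spread between these samples. A gene of a list was represented by its brightest tested probe. Gene names were matched to RefSeq (GRCm38.p6) through accessions (28331 probes), symbols (2209) or synonyms (174), and 24967 kept the array's name. Motifs were searched in RefSeq promoter sequences. The fit was tested on simulated data. Tables and figures were made with pandas 2.3.3 and matplotlib 3.10.9 in Python 3.11.15.

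The members, lists, tests and alternatives were chosen with earlier results of these data known. The genes named are all receptor and ligand genes, Rbpj, the 2 genes of each pathway list with the smallest p (all where 6 or fewer were tested), the 2 brightest genes of each marker list and the 2 nearest profiles. Other genes of a list (Epn1, Epn2, Mib1, Mib2, Psenen, Fbxw7, Kdr, other markers and those not tested) were named after their values were seen. The alternative without both Rbpj +/+_1156 and Rbpj -/-_N3 was chosen after seeing the data. Some marker genes are not reported here. Histology, protein and serum measurements were not analysed here.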

Additional observations from a re-analysis of the deposited data

Results flagged for a closer look

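Among 25 sets of 4 Rbpj +/+ values, 2 had a value far from the others by Dixon's gap test at the 95% level, and chance alone flags about 1 in 20 such sets. For Hes1, the gap of the outlying control array to its nearest neighbour was 0.96 of the whole range of the controls, whose values ran from -0.76 to 1.34. For Hey1 it was 0.886, with control values from -2.21 to -1.48. The Notch1 probe from transcript base 8221, which entered no test, had an intensity of 56.8 on array Rbpj -/-_N3, while the Rbpj +/+ arrays did not detect it, with intensities from 2.29 to 6.16. Array Rbpj -/-_N3 was also the array with the most detected probes (36138).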

How the results depend on the processing

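Of 394 values of the receptor, ligand and named pathway genes under alternative settings, 332 kept their direction and their side of the threshold, 43 lost the call, 17 gained it and 2 changed sign. The values that changed sign were Jag1 without array Rbpj +/+_1156 (-0.026, adjusted p = 0.942) and Dll4 with normexp (-0.12, adjusted p = 0.578). Without a filter on dim probes, 2038 of 55681 probes, 0 of 10 receptor and ligand probes and 6 of 59 pathway genes passed, and Notch1 (-1.26, adjusted p = 0.282), Notch3 (0.75, 0.213) and Dll1 (0.74, 0.199) lost their calls. With array weights, 6 receptor and ligand probes and 26 pathway genes passed, among them Notch2 (0.51), Notch4 (0.77) and Dll4 (0.95). Notch1 lost its call under quantile normalization (-1.25), with the series matrix values (-1.25) and with the percentile over probes detected on all arrays (-1.18). Notch2 gained a call with normexp (0.54), quantile normalization (0.69), the series matrix (0.69), that percentile (0.72), detection on all 7 arrays (0.64) and limma with a trend (0.64). Dll4 gained one under quantile normalization and with the series matrix (1.02 each), and Dll1 lost its call with normexp (0.24). Leaving out 1 animal at a time gave 4878 to 9000 probes, 1 to 4 receptor and ligand probes (1 without Rbpj -/-_2866) and 11 to 21 pathway genes, with 4878 probes and 11 pathway genes without Rbpj -/-_N5 and 5479 probes without Rbpj +/+_1024. The differences then ran from -1.63 to -0.97 for Notch1, 0.41 to 0.76 for Notch2, 0.61 to 0.88 for Notch3, 0.44 to 0.81 for Notch4, -0.026 to 0.30 for Jag1, 0.61 to 0.83 for Dll1 and 0.56 to 1.29 for Dll4. Without both Rbpj +/+_1156 and Rbpj -/-_N3, 3 receptor and ligand probes passed: Notch3, Dll1 and Notch4 (0.66, adjusted p = 0.0916), but not Notch1 (-1.33, adjusted p = 0.101). The causes of these changes were not tested. No paired analysis was possible because the numbers in the labels are not shared between the groups. With 4 and 3 arrays, the 95% interval of the dim Dll4 probe ran from -0.19 to 2.01, and a difference of Jag2, below background on 6 arrays, was not measurable.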
